A study of Homo sapiens with 4 samples.

Results

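BRD8 is a bromodomain subunit of the TIP60/NuA4 complex, which acetylates histones and exchanges histone variants at chromatin. This account describes the BRD8-bound regions that lie far from any gene in a pair of established human cell lines from colorectal cancers, HCT116 and SW480. A region was included when its summit, the position of highest ChIP signal, lay outside every gene and at least 50 kb from every gene end in a RefSeq table of GRCh38.p14. Chromosome 7 from 76 to 96 Mb and the 5 Mb of chromosome 8 that end at 130 Mb were left out by the same rule. Of 35177 regions on chromosomes 1 to 22 and X in both lists, 395 met the rule. They were 185 of 22303 in HCT116 and 210 of 12874 in SW480, and 10 of them overlapped between the lines, which left 385 distinct sites.

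Each line gave 1 BRD8 ChIP-seq library, made with a polyclonal BRD8 antibody from formaldehyde-fixed, micrococcal nuclease-digested chromatin, and 1 input library without antibody. HCT116 cells were kept in McCoy's 5A medium and SW480 cells in Leibovitz's L-15, both with serum and antibiotics, and no treatment is named. Only the peak lists of the 2 ChIP libraries were used, and with a single library per line none of the differences given here carries a replicate error. Intervals on shares are 95% Wilson intervals and cover counting error among regions only, and neighbouring regions share a locus and are not independent.

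Intergenic DNA far from genes holds distal enhancers, which are bound by transcription factors and cofactors, and long stretches with little regulatory activity. Bromodomain proteins bind acetylated histone tails, and acetylated chromatin marks active promoters and enhancers. Centromeres and their flanks are built on long arrays of satellite repeats, to which short reads cannot always be placed uniquely. Sites within 5 Mb of a centromere band were therefore kept apart from sites elsewhere. They numbered 10 in HCT116 (5.41% of its far intergenic regions, 2.96 to 9.66) and 59 in SW480 (28.1%, 22.5 to 34.5). Elsewhere there were 175 and 151. The genome sequence under the sites was not used here, so no base sequence, motif or repeat class is given.

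BRD8 regions were sparse in this territory. Far intergenic regions made up 0.829% of the HCT116 list (0.719 to 0.957) and 1.63% of the SW480 list (1.43 to 1.86). The territory measured 452 Mb between the first and the last gene of each chromosome, with unsequenced stretches included, out of a span of 3029 Mb. Away from centromeres it held 0.537 regions per Mb in HCT116 and 0.463 in SW480, while the whole lists held 7.36 and 4.25 per Mb. Near centromeres the densities were 0.0797 and 0.470 per Mb. The lists differ in length, and the order of the lines elsewhere turned when the HCT116 list was cut to the length of the SW480 list by −log10 q. HCT116 then had 0.184 regions per Mb elsewhere and 0.0398 near centromeres. Near centromeres SW480 had the higher density in both cases. A region absent from a list may still lie below the calling threshold of that list.

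The regions elsewhere were narrow and weak. Their median width was 359 bp in HCT116 and 297 bp in SW480, against 596 and 394 bp over the whole lists. The summit pileup, the number of ChIP fragments that overlap the summit, had a median of 17 in HCT116 (range 12 to 668) and 18 in SW480 (13 to 758). Over the whole lists the medians were 24 and 26. Median fold enrichment, the authors' ratio of ChIP signal to local background at the summit, was 3.41 for HCT116, where the list had 3.70, and 3.34 for SW480, where the list had the same 3.34. The −log10 q, the caller's significance, reached 5 in 49 of 175 HCT116 regions (28.0%, 21.9 to 35.1), and 54.0% of all HCT116 regions reached it. In SW480 it did so in 25 of 151 (16.6%, 11.5 to 23.3), against 41.9% of all SW480 regions. The median −log10 q elsewhere was 3.77 in HCT116 and 3.36 in SW480, closer to the calling threshold than the medians of the lists, 5.54 and 4.37.

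**Figure D1:**
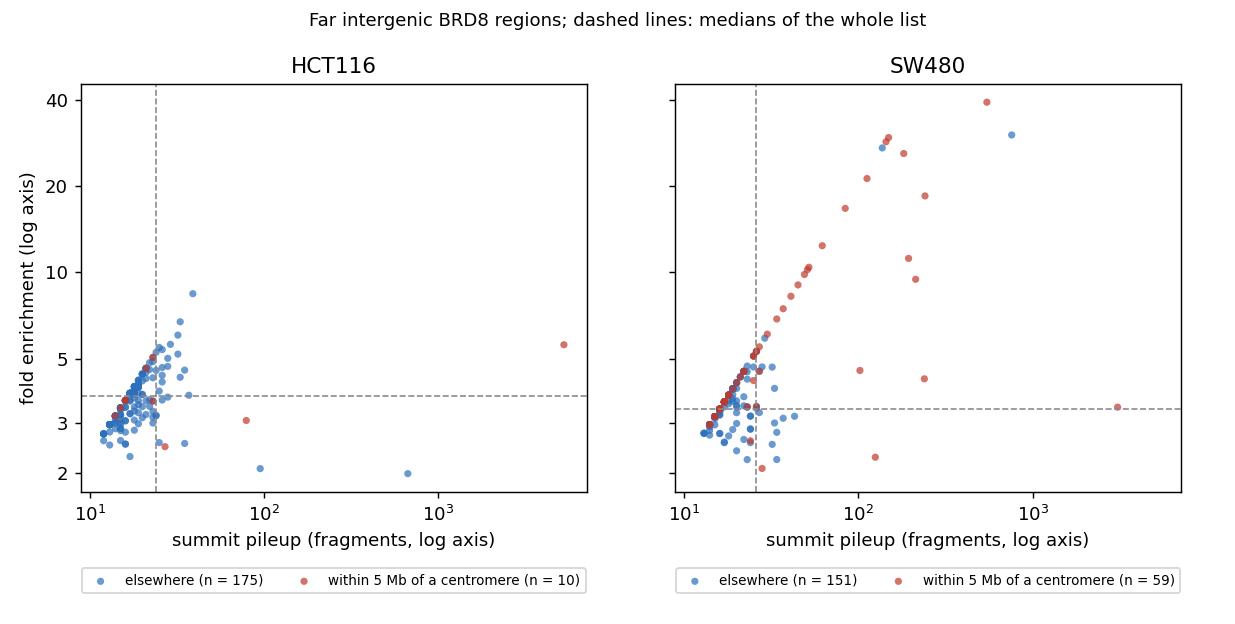
Fold enrichment (vertical, log axis) against summit pileup in fragments (horizontal, log axis) for each far intergenic region of HCT116 (left) and SW480 (right), near centromeres in red and elsewhere in blue, with dashed lines at the medians of the whole list. The SW480 regions near centromeres extend to a fold of 39.2, while the HCT116 regions stay at or below 8.43.

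The local background, the caller's estimate of fragments at the summit without enrichment, was often at its lowest level. It cannot fall below a floor that the caller uses for the entire library, and that floor was 3.75 fragments in HCT116 and 4.09 in SW480. Elsewhere, 77 of 175 HCT116 regions (44.0%, 36.9 to 51.4) and 93 of 151 SW480 regions (61.6%, 53.6 to 69.0) had it, against 11.1% and 22.8% of the lists. Near centromeres it was found in 6 of 10 and in 43 of 59 regions. A background above 20 fragments was found elsewhere at 2 of 175 HCT116 regions and 1 of 151 SW480 regions, and near centromeres at 2 of 10 and 5 of 59. The shares of the whole lists above 20 fragments were not computed.

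Away from centromeres, overlap between the lines was low. There, 8 of 175 HCT116 regions (4.57%, 2.33 to 8.76) overlapped a SW480 region by at least 1 bp, while 24.2% of all HCT116 regions did. Of the SW480 regions elsewhere, 8 of 151 (5.30%, 2.71 to 10.1) overlapped a HCT116 region, against 49.1% of the list. Near centromeres 2 of 10 HCT116 regions (interval 5.67 to 51.0%) and 2 of 59 SW480 regions (3.39%, 0.935 to 11.5) overlapped. Regions of the other line were less often close by elsewhere than in the lists. A SW480 region lay within 100 kb of 38 HCT116 regions elsewhere (21.7%, 16.2 to 28.4), against 76.2% of the HCT116 list. A HCT116 region lay within 100 kb of 37 SW480 regions elsewhere (24.5%, 18.3 to 31.9), against 80.6% of the SW480 list. Near centromeres 8 of 10 HCT116 regions had a SW480 region within 100 kb, and 12 of 59 SW480 regions (20.3%) had a HCT116 region. Signal strength moved with overlap in both lists, so the comparison was repeated by −log10 q. Below 5, 2 of 126 HCT116 regions elsewhere overlapped (1.59%, 0.436 to 5.60), against 7.95% of all HCT116 regions of that class, and 2 of 126 SW480 regions did, against 35.5%. At 5 or more, 6 of 49 HCT116 regions elsewhere overlapped (12.2%, 5.73 to 24.2), against 38.0%, and 6 of 25 SW480 regions (24.0%, 11.5 to 43.4), against 68.0%. In each class the share elsewhere was below that of the list. The class of 5 or more was not matched in strength. Within it, 10 of 49 HCT116 and 3 of 25 SW480 regions elsewhere reached a −log10 q of 10, against 6036 of 12045 and 1986 of 5396 in the lists.

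**Figure D2:**
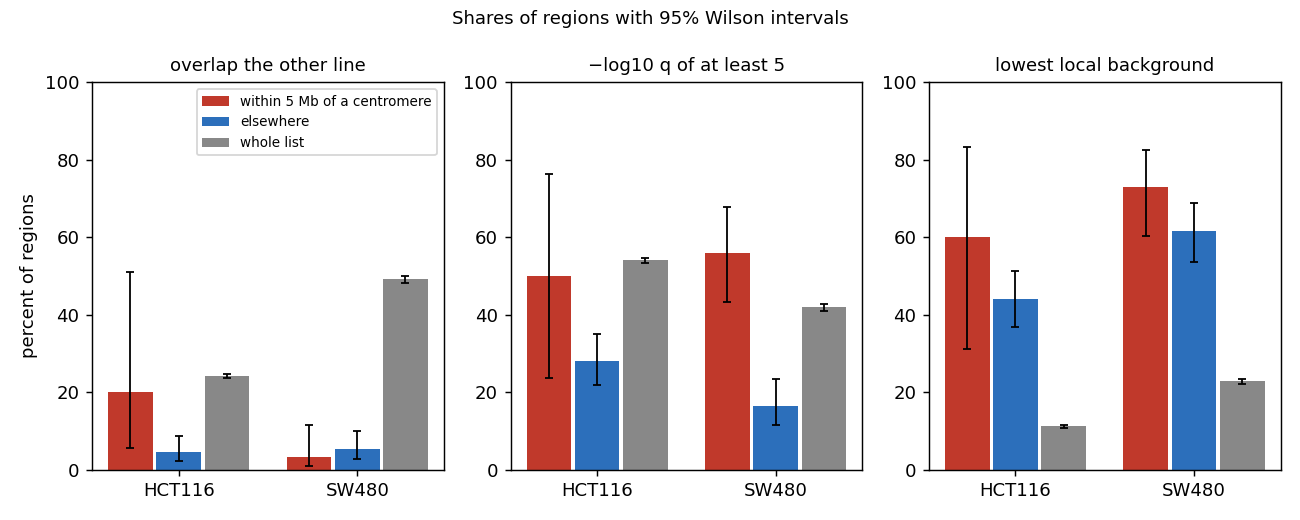
Percent of regions (vertical) that overlap the other line, reach a −log10 q of 5, or have the lowest local background, for regions near centromeres, elsewhere and in the whole list, with 95% Wilson intervals as error bars. The shares that overlap elsewhere are 4.57% in HCT116 and 5.30% in SW480, below both whole lists.

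Among the HCT116 sites elsewhere, the 3 of highest fold were single regions outside any run of neighbouring sites. The highest fold, 8.43 with a pileup of 39, was on chromosome 5 (104178733 to 104179452, GRCh38), 73704 bp from the long noncoding RNA gene NIHCOLE and 616367 bp from NUDT12, the nearest protein-coding gene. The nearest SW480 region was 616845 bp away. The second highest fold, 6.73, belonged to chromosome 13 (105139023 to 105140164), at a site 326019 bp from DAOA. A pair on chromosome 3 (23739222 to 23739967 and 23740709 to 23741803) had folds of 5.38 and 5.62. It lay 66314 and 65133 bp from UBE2E1, which encodes a ubiquitin-conjugating enzyme. On chromosome 2 (181811627 to 181812102) a region 79746 bp from ITPRID2 had a fold of 5.48. It belonged to a run of 9 regions. In all, 10 of 175 HCT116 regions elsewhere had a fold above 5, and the share of the whole list was not computed.

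In SW480 a pair on the long arm of chromosome 16 stood far above every other site elsewhere. Its regions (46390382 to 46391215 and 46394188 to 46394933) had folds of 30.1 and 27.1 and pileups of 758 and 137. They lay 7.99 Mb beyond the centromere band and 78588 and 74898 bp from the pseudogene ANKRD26P1, and so counted as elsewhere by the 5 Mb rule. Without this pair the highest SW480 fold elsewhere was 5.90 and the highest pileup 43. The site of fold 5.90 was on the X chromosome (43604200 to 43604462), 50680 bp from MAOA, the gene of monoamine oxidase A. It was followed by a region on chromosome 3 (31362123 to 31362485, fold 5.31) near STT3B, a catalytic subunit of oligosaccharyltransferase. On chromosome 1 (113308149 to 113308407) a region 82241 bp from MAGI3, a scaffold protein of cell junctions, had a fold of 4.72. The nearest HCT116 region to it, itself far intergenic (113324804 to 113325318, fold 4.21), was 16688 bp away.

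Near centromeres SW480 held strong sites with no counterpart in the HCT116 list. The HCT116 pileup and background at sites absent from its list are not known here, so such sites may lie below its calling threshold. A cluster of 6 regions on chromosome 5 (49599450 to 49666786), inside the centromere band, had folds from 6.09 to 39.2 and pileups from 30 to 546. The strongest (49601460 to 49603001) lay 794087 bp from EMB, the nearest gene, which encodes the membrane glycoprotein embigin. The nearest HCT116 region to any of the 6 was 1716528 bp away. On chromosome 20 a run of 11 regions (31053411 to 31075764) had folds from 3.34 to 12.4, and a single region beyond it (31184955 to 31185369) had a fold of 16.7 and lay 72535 bp from DEFB115, a beta-defensin gene. Of the 59 SW480 regions near centromeres, 21 were on chromosome 20. On chromosome 4 (49657487 to 49657781) a region of 295 bp had a fold of 29.5, a pileup of 149 and the lowest background. The HCT116 list held 2 regions, of folds 4.64 and 3.58, the nearer of them 53169 bp from it. In all, 23 of 59 SW480 regions and 2 of 10 HCT116 regions near centromeres had a fold above 5. The shares of the whole lists above that fold were not computed.

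Chromosome 16 held another strong SW480 pair near its centromere. The first region (34587995 to 34588670) had a fold of 25.9 and a pileup of 182, and the second (34593143 to 34593632) a fold of 21.2 and a pileup of 112. Only the second overlapped a HCT116 region. The median fold of all 59 SW480 regions near centromeres was 4.20. Their median pileup was 25 and their median width 470 bp, both above the medians elsewhere in the same line. Bands of the centromere itself held 29 of the 59 (49.2%) and 3 of the 10 HCT116 regions.

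The HCT116 regions near centromeres were few and mostly of modest strength. A run of 4 on chromosome 5 (44876008 to 44920443) had folds from 3.16 to 5.06 and lay 60610 to 104725 bp from MRPS30, a mitochondrial ribosomal protein gene. A region on chromosome 16 (34593263 to 34593561) had a pileup of 79 and a fold of 3.05. By far the strongest in pileup was a region on chromosome 3 (93470370 to 93470805), with 5254 fragments, the highest of the whole HCT116 list. Its fold was 5.60, because the local background was 938 fragments. The overlapping SW480 region had the highest pileup of its list as well, 3072, and a background of 905. This site lay 373162 bp from its nearest gene, the pseudogene RNU6-488P, and 402449 bp from PROS1, the gene of the anticoagulant protein S.

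The 5 sites farthest from any gene were all SW480 regions near centromeres. A region on chromosome 17 (25920100 to 25920326) lay 1061481 bp from the nearest gene and had a fold of 4.26, with a pileup of 239 and a background of 55.3. One on chromosome 7 (61935895 to 61936236) lay 942682 bp away and had a pileup of 14. The other three belonged to the chromosome 5 cluster. Beyond 200 kb from every gene there were 25 of 59 SW480 and 1 of 10 HCT116 regions near centromeres, and 5 of 151 and 4 of 175 elsewhere. At the other edge of the rule, the HCT116 region just inside the 50 kb limit was 50090 bp from a gene and had a fold of 3.79, and the region just outside was 49865 bp away with a fold of 3.59. In SW480 the corresponding distances were 50680 and 49982 bp, with folds of 5.90 and 2.88. The last SW480 region counted as near a centromere lay 4.67 Mb from the band with a fold of 2.08, and the first counted elsewhere lay 5.13 Mb away with a fold of 3.25.

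The 10 shared sites fell into 2 kinds. At 6 of them, all away from centromeres, both lines had pileups between 13 and 37 and backgrounds below 15. A site on chromosome 14 (54252778 to 54253708 in HCT116) had a pileup of 32 in both lines and folds of 6.05 in HCT116 and 4.68 in SW480. It lay 65133 bp from LOC105370507 and 143420 bp from CDKN3, a phosphatase that acts on cyclin-dependent kinases. The X chromosome site near MAOA had pileups of 23 and 29 and folds of 5.06 and 5.90. A site on chromosome 16 (86664264 to 86665397) near FOXL1, a forkhead factor of the gut mesenchyme, had a pileup of 37 in each line and folds of 3.73 and 3.10. On chromosome 17 (68759379 to 68759973) a site near the transporter gene ABCA8 had pileups of 35 and 34 and folds of 2.54 and 2.23. Adjacent sites on chromosome 7 (106717821 to 106718110 and 106718491 to 106718917) near CCDC71L had pileups of 13 and 19 in HCT116 and 19 and 25 in SW480. Their folds were 2.95 and 3.99 in HCT116 and 3.76 and 4.68 in SW480.

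At the other 4 shared sites the pileups were high in both lines. These were the chromosome 3 site and 3 sites on chromosome 16. On chromosome 16 the fold in SW480 was 6.96 to 15.1 times that in HCT116, while the pileup was 1.13 to 1.44 times as high. At 46390382 to 46391215 the pileups were 668 in HCT116 and 758 in SW480. The backgrounds there were 335 and 24.2 fragments, and the folds 1.99 and 30.1. At 46394188 to 46394933 the pileups were 95 and 137, the backgrounds 45.3 and 4.09 and the folds 2.07 and 27.1. At 34593143 to 34593632 the pileups were 79 and 112, the backgrounds 25.2 and 4.32 and the folds 3.05 and 21.2. The chromosome 16 differences in fold thus lay in the background that the caller assigned. Whether the input libraries or the ChIP coverage around the sites set that background was not tested. Over all 10 shared sites, 9 had pileups within 1.5 times of each other and 7 had backgrounds that close.

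**Figure D3:**
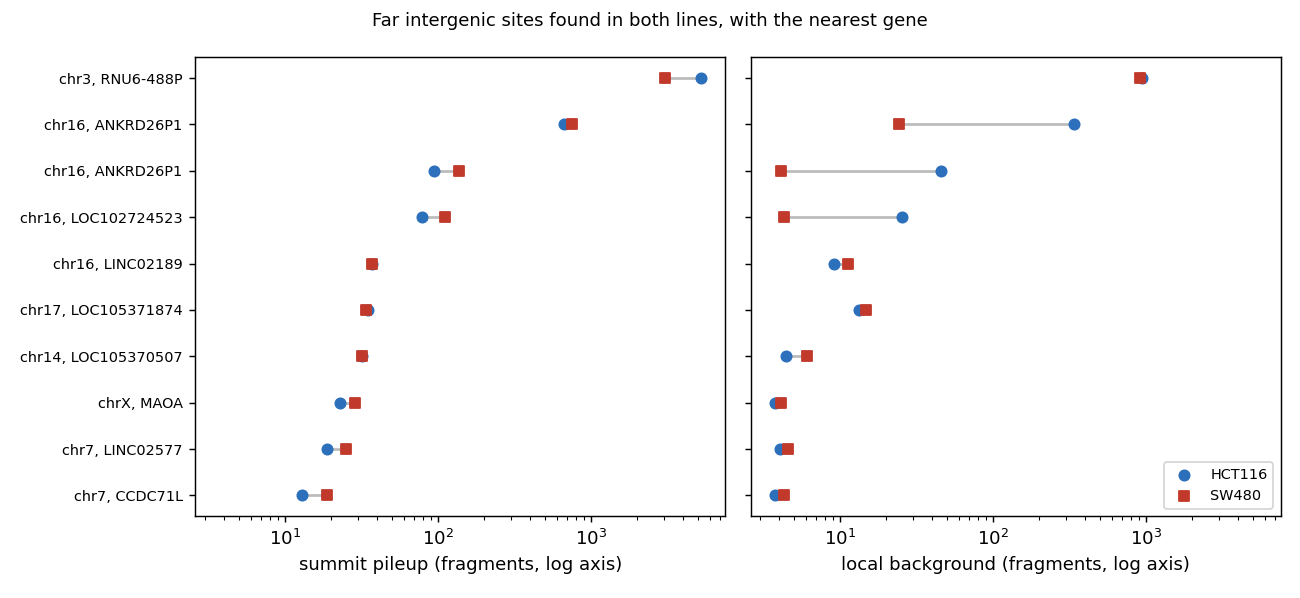
Summit pileup (left) and local background (right), in fragments on a log axis, of the 10 far intergenic sites found in both lines, HCT116 as blue circles and SW480 as red squares, labelled by chromosome and nearest gene. At 3 chromosome 16 sites the pileups lie close together while the HCT116 background is 5.84 to 13.8 times the SW480 background.

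Part of the sites away from centromeres lay in runs, defined as 3 or more far intergenic regions with neighbouring summits less than 100 kb apart. The share in runs was not computed for the whole lists. In HCT116, 13 runs held 98 of the 175 regions (56.0%, 48.6 to 63.1). In SW480, 6 runs held 41 of 151 (27.2%, 20.7 to 34.7). Near centromeres 1 HCT116 run held 4 of 10 regions and 7 SW480 runs held 39 of 59 (66.1%, 53.4 to 76.9). No run member away from centromeres overlapped a region of the other line. Over all regions elsewhere 4.57% in HCT116 and 5.30% in SW480 overlapped, against 24.2% and 49.1% of the lists. No region of the other line lay between the ends of any of those 19 runs. The runs spanned 3.96 to 203 kb, and regions elsewhere had densities of 0.537 per Mb in HCT116 and 0.463 in SW480. Stretches this short would seldom hold a region of the other line, so the 0 counts do not show line specificity. Another region of the same list lay within 10 kb of 104 HCT116 regions elsewhere (59.4%, 52.0 to 66.4) and 52 SW480 regions (34.4%, 27.3 to 42.3). Over the whole lists these shares were 67.9% and 57.6%. Within 100 kb the shares elsewhere were 80.6% in HCT116 and 62.3% in SW480, against 92.6% and 85.0% of the lists. At both distances neighbours were thus less frequent among the regions elsewhere than in the lists. The rule bars regions at genes from within 50 kb of a member, so the sets are not alike in this. Near centromeres 39 of 59 SW480 regions (66.1%) had a neighbour within 10 kb and 46 (78.0%) within 100 kb. In HCT116 6 of 10 did at each distance.

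The largest HCT116 run lay beyond KITLG, the gene of the ligand of the receptor kinase KIT. It held 19 regions in 40.1 kb of chromosome 12 (88920593 to 88961545), 340428 to 380565 bp from the gene. Folds ran from 2.52 to 4.56 with a median of 3.78, and pileups from 12 to 26. KITLG itself had a gene-end region of fold 4.43 in HCT116 and none in SW480. The second run, of 18 regions in 43.7 kb of chromosome 4 (74638894 to 74683520), lay 62018 to 105724 bp from BTC, which encodes betacellulin, a ligand of the EGF receptor. Its folds ran from 2.55 to 4.64. Within 500 kb of BTC the HCT116 list held 65 regions, the run among them, and the SW480 list 0. This window was picked for its HCT116 run and the lists differ in length, so such counts do not show line specificity. The third run, of 10 regions on chromosome 6 (144909721 to 145022563) near UTRN, the gene of the cytoskeletal protein utrophin, had folds from 2.74 to 5.02.

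The other HCT116 runs lay near genes of various functions. On chromosome 2 a run of 9 regions (226018387 to 226069252) was nearest to NYAP2 and a run of 5 (226580952 to 226601115) to IRS1, the insulin receptor substrate. Within 1 Mb of the second, itself included, the HCT116 list held 90 regions and the SW480 list 5, again in a window picked for a HCT116 run. Also on chromosome 2, 9 regions (181790033 to 181825322) lay near ITPRID2, whose gene-end region had a fold of 4.47 in HCT116 and 3.81 in SW480. A run of 6 on chromosome 17 (71406305 to 71530299) lay 590930 to 714539 bp from SOX9, a transcription factor of intestinal stem and progenitor cells. SOX9 had no gene-end region in either line. Runs of 3 to 5 regions were nearest to NECTIN3, a cell adhesion gene, SUCNR1, the succinate receptor, SIM1, a transcription factor, RPS23, a ribosomal protein gene, and UBE2E1. One run of 3 lay between KIF20B and HTR7. Over these runs folds stayed between 2.28 and 5.62.

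In SW480 the largest run away from centromeres belonged to the flank of SOX5, a transcription factor gene. It held 21 regions in 203 kb of chromosome 12 (23248005 to 23451738), 77928 to 281300 bp from SOX5, with folds from 2.55 to 4.52. The background was at its lowest level in 16 of the 21. The run continued into the gene, which held 121 SW480 regions and 0 HCT116 regions. Within 1 Mb of the run there were 189 SW480 regions, the run included, and 2 HCT116 regions. The window was picked for its SW480 run, so these counts do not show line specificity. Without this run 130 SW480 regions elsewhere remained.

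The smaller SW480 runs lay near BMAL1, a core gene of the circadian clock, with 5 regions on chromosome 11 (13169387 to 13217346), and near STT3B, with 5 on chromosome 3 (31357415 to 31378035). Runs of 4 and 3 regions were nearest to EFNB1, an ephrin gene on the X chromosome, DHX35, an RNA helicase gene on chromosome 20, and TRIB2, a pseudokinase gene on chromosome 2. HCT116 regions were more common around some of these runs than around SOX5. Within 1 Mb of the STT3B run there were 24 HCT116 and 19 SW480 regions, and around the DHX35 run 10 and 17. The next longest SW480 runs after that at SOX5 were near centromeres. They were the 11 regions on chromosome 20 near DEFB115 described above and 7 regions on the same chromosome (28806821 to 28830856), with folds from 3.34 to 5.11. The HCT116 list held no region within 1 Mb of the latter, a window picked for its SW480 run.

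**Figure D4:**
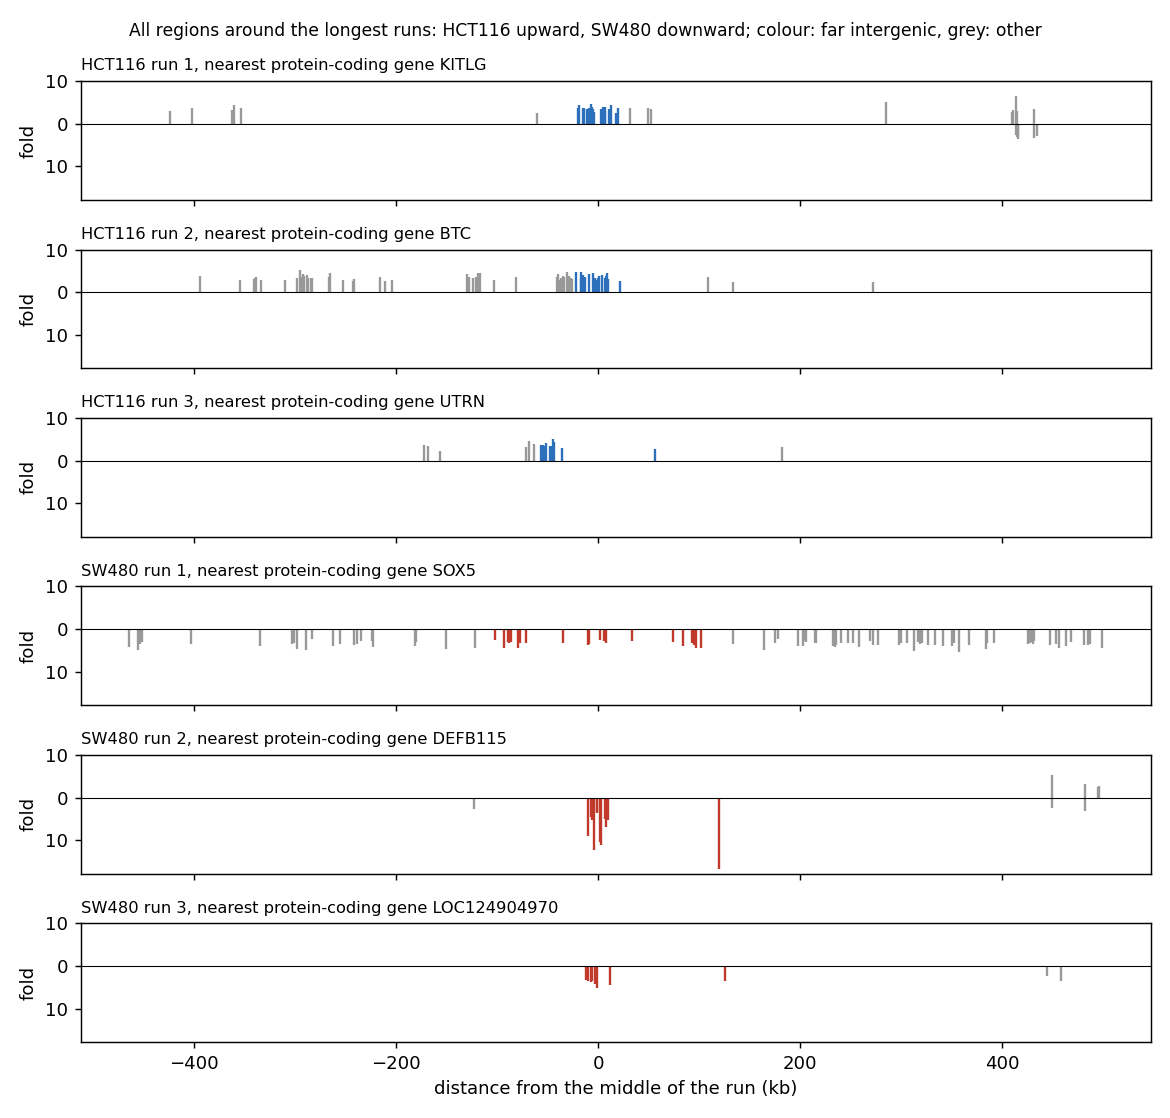
Fold enrichment (vertical, HCT116 upward and SW480 downward) of every region within 500 kb of the middle of the 3 longest runs of each line, against the distance from that middle in kb, with far intergenic regions in colour and other regions in grey. The runs near KITLG, BTC, UTRN and SOX5 hold 19, 18, 10 and 21 far intergenic regions of a single cell line, with folds at or below 5.02.

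The runs shaped the spread over chromosomes. Elsewhere, HCT116 regions were most numerous on chromosome 2 with 27, chromosome 4 with 25, chromosome 12 with 23 and chromosome 6 with 20. Runs held 23 of the 27 on chromosome 2, 18 of the 25 on chromosome 4 and 19 of the 23 on chromosome 12. SW480 regions elsewhere were most numerous on chromosome 7 with 26, none of them in a run, and chromosome 12 with 25, of which 21 were in the SOX5 run. Chromosome 7 held 17.2% of the SW480 regions elsewhere and 3.32% of the territory, and it held 14.7% of the whole SW480 list. The list shares given here count the stretches that the rule leaves out, and the shares of regions elsewhere do not. On chromosome 7 the left-out stretch held 95 SW480 regions that met the distance limits. The 17.2% and the 14.7% are therefore not shares of like sets, and the list share without that stretch was not computed. Chromosome 12 held 16.6% of the SW480 regions elsewhere, 2.29% of the territory and 8.05% of the list. Chromosome 13, with 7.58% of the territory elsewhere, held 6 HCT116 regions (3.43%, against 1.82% of the list) and 2 SW480 regions (1.32%, against 2.01%). Chromosome 1, with 8.43% of the territory, held 4 HCT116 regions (2.29%, against 10.1% of the list) and 2 SW480 regions. The widest gene-free gap, which touches the centromere band, measured 21.7 Mb on chromosome 1 and 17.8 Mb on chromosome 13. Unsequenced stretches count as territory and were not measured by chromosome, so these shares do not show depletion. Copy number of these chromosomes in the lines was not analysed here.

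**Figure D5:**
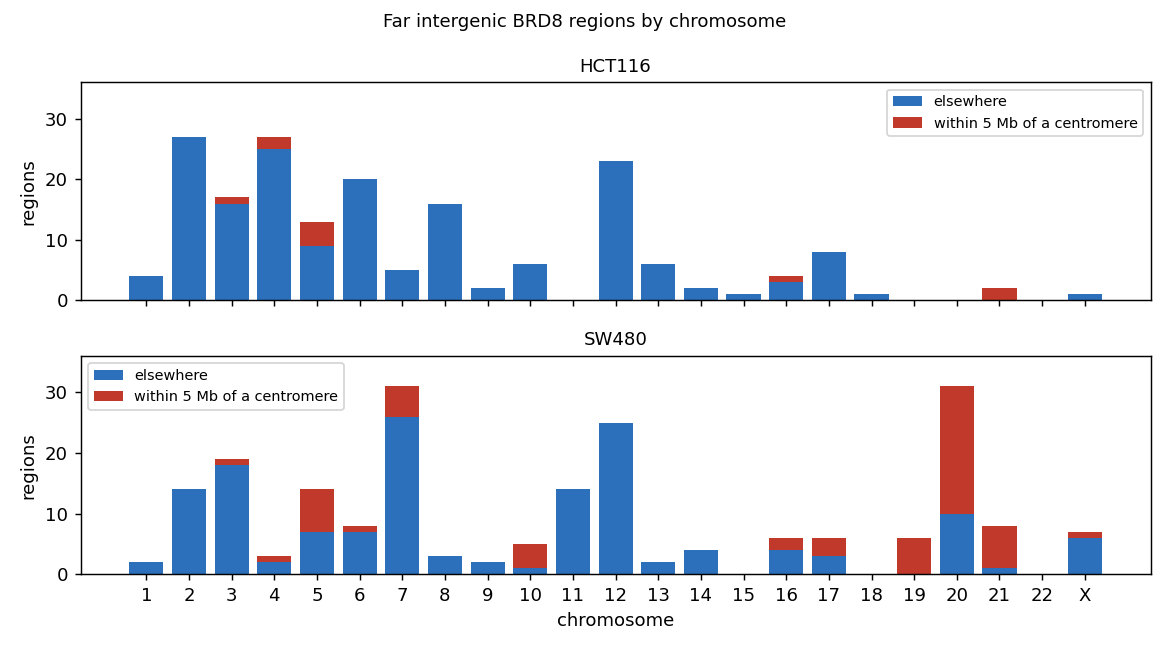
Number of far intergenic regions (vertical) on each chromosome (horizontal) in HCT116 (top) and SW480 (bottom), elsewhere in blue and within 5 Mb of a centromere in red, stacked. HCT116 has its highest totals on chromosomes 2 and 4, and SW480 on chromosomes 7 and 20, where 21 of the SW480 regions are near the centromere.

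The nearest protein-coding genes were few for the HCT116 regions and more spread for SW480. The 175 HCT116 regions elsewhere had 71 different nearest protein-coding genes at a median distance of 155761 bp, and the 151 SW480 regions had 95 at a median of 146544 bp. Of the 71, 39 had a HCT116 region within 1 kb of an end (54.9%, 43.4 to 66.0), against 44.0% of all protein-coding genes. Of the 95, 27 had a SW480 gene-end region (28.4%, 20.3 to 38.2), against 22.1% of all. The share over all genes lay inside both intervals. The nearest gene of any type was a long noncoding RNA gene for 86 HCT116 and 76 SW480 regions elsewhere, a pseudogene for 41 and 39, and a protein-coding gene for 35 and 36. Near centromeres it was a pseudogene for 38 of 59 SW480 regions. Gene types were not counted over all regions outside genes or over the territory, so these counts have no baseline.

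Several genes were the nearest protein-coding gene of 3 or more regions elsewhere. Beside the genes of the runs, in HCT116 these were CSMD3 and RIPK2, a kinase of NOD receptor signalling, with 3 each. HTR7, a serotonin receptor gene, had 4, some of them in the run between KIF20B and HTR7. The regions of these genes had folds from 2.74 to 3.79. In SW480 they included CCDC71L, NXPH1 and OTOL1 with 3 each. Among all the genes with 3 or more, CCDC71L was the only one whose neighbouring regions were shared with the other line.

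A list of 58 regulators and signalling genes that are flanked by long gene-poor stretches was compared with the sites. The list was chosen with earlier results of these data known, so a high share by its genes is not independent support. In HCT116, 10 of 175 regions elsewhere (5.71%) had a listed gene as the nearest protein-coding gene, against 1.03% of all HCT116 regions outside genes. The genes were SOX9, KLF5, a factor of the intestinal epithelium, EFNB2, an ephrin, and PCDH7, a protocadherin. The SOX9 run made up 6 of the 10, and without it 4 of 169 remained (2.37%). In SW480 the count was 25 of 151 (16.6%), against 1.37% of regions outside genes, and the genes included SOX5 and SOX11. The SOX5 run made up 21 of the 25, and without it 4 of 130 remained (3.08%). The shares over all regions outside genes, 1.03% and 1.37%, still hold the members of these runs. Genes with long gene-poor flanks are by their position the nearest gene of more far intergenic sequence, and the part of that geometry in these shares was not tested. None of the regions near centromeres had a listed gene as its nearest, among 10 in HCT116 and 59 in SW480. At shares of 1.03% and 1.37% so few regions can hold none, so this does not show depletion.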

How the data were processed

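The analysis used the BRD8 peak list of each line. The tools named are Trimmomatic 0.33, Bowtie2 2.4.1, MACS2 and deepTools with the build GRCh38, per the submitters' processing notes. How reads were filtered and whether duplicates were removed is not said there. Each ChIP library has its own list, and the lowest −log10 q in the lists, 1.30 and 1.31, matches a threshold of 0.05 on q. Fold enrichment, as the authors deposited it, is a ratio of ChIP signal to local background at the summit. Each summit also has a −log10 of its p-value and of its q-value, both as the authors deposited them. For 99.8% of HCT116 rows the authors' score is a whole number that equals 10 times the −log10 q, rounded down, and it was not used further.

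Read totals are not in the lists. Summit pileup and local background were solved from fold and p, with whole pileups, under the Poisson tail that MACS2 uses, at a relative tolerance of 0.0001, for all 22303 and 12874 regions. The solver was tested on simulated data. Genes were the 59098 entries of the RefSeq GRCh38.p14 table on these chromosomes, 19974 of them protein-coding. Centromere bands were entered by hand from the standard GRCh38 ideogram, since no table used here gives them, and they touch the widest gene-free gap on 20 of 23 chromosomes. Shares have 95% Wilson intervals, and no test between the lines was possible with 1 library each. Python 3.11.15, pandas 2.3.3 and SciPy 1.17.1 were used.

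The members, the list of 58 genes and the alternatives were chosen with earlier results of these data known. Sites were named by rule: per line the 6 of highest fold near centromeres and elsewhere and the 3 longest runs, and over both lines the shared sites elsewhere (at most 10), the 5 sites farthest from genes and, per line, up to 15 recurrent neighbour genes. The other runs, the shared sites near centromeres, the chromosome 20 region beyond its run and the HCT116 region near MAGI3 were named after their values were seen, and the overlap by −log10 q class was added then. Motif and repeat counts were planned and need a genome sequence, so they were not made. One SW480 site and one neighbour gene that the rule names are not reported here.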

Additional observations from a re-analysis of the deposited data

Results flagged for a closer look

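Regions outside the comparisons also carried signal. The HCT116 list held 8 regions on unplaced or unlocalised contigs, with a median fold of 8.32, and the SW480 list held 68 on 23 such contigs, with a median fold of 3.94 and a highest fold of 49.5. They were noted because both counts exceed the 3 counts that 0 allows, and they have no position relative to genes or centromeres here. In the stretches of chromosomes 7 and 8 that the rule leaves out, 117 SW480 regions met the distance limits, 95 on chromosome 7 and 22 on chromosome 8, against 2 in HCT116. Their median fold was 3.34.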

How the results depend on the processing

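Region counts were recomputed under 6 other settings, shares near centromeres and medians of fold and pileup under 8, overlap under 10 and density under 1. Of these values, 98 stayed within their interval, or for counts and densities within 1.5 times, and 38 did not. Runs, widths, local background and neighbour genes were not recomputed under these settings. Requiring a −log10 q of at least 5 left 54 HCT116 and 58 SW480 regions. It raised the SW480 share near centromeres to 56.9%, the overlap elsewhere to 12.2% in HCT116 and 24.0% in SW480, the median folds elsewhere to 4.42 and 4.52 and the median pileups elsewhere to 23 in both. Near SW480 centromeres the medians became 6.88 and 49. A distance of 20 kb gave 640 and 598 regions, a SW480 share near centromeres of 14.9%, an overlap of 10.6% for SW480 elsewhere and a median pileup of 19 for HCT116 elsewhere. A distance of 100 kb gave 33 and 90 regions, shares near centromeres of 18.2% and 51.1%, an overlap elsewhere of 0 in both lines and a HCT116 median fold of 3.18. With protein-coding genes only there were 1566 and 1224 regions, a SW480 share near centromeres of 11.5%, overlaps elsewhere of 10.2% and 16.1% and median pileups of 19 and 20. Cutting the HCT116 list to the length of the SW480 list by −log10 q left 65 HCT116 regions, with an overlap of 10.0%, a median fold of 4.24 and a median pileup of 21 elsewhere. Densities were then 0.184 per Mb elsewhere and 0.0398 near centromeres, a recomputation added after the data were seen. A centromere flank of 10 Mb raised the shares near centromeres to 10.3% and 49.0%. The SW480 share near centromeres was above the HCT116 share under each of the 8 settings. In the values listed, fewer or more regions enter by the setting's own construction. No paired analysis was possible because each line has 1 ChIP library and the labels give no replicate numbers. Read depth is not in the lists, so regions absent from a list may be below its calling threshold.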
